A study of Homo sapiens with 9 samples.

Results

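Glycolysis, gluconeogenesis and hypoxia genes were followed in HepG2 cells whose TRIB3 had been knocked down. HepG2 is a human liver cancer line that keeps much hepatocyte gene expression, and TRIB3 encodes a pseudokinase induced when amino acids run short. The 40 genes were chosen by symbol, as glucose and lactate carriers, enzymes of glycolysis and gluconeogenesis, the enzymes that set fructose 2,6-bisphosphate, HIF1A and hypoxia targets. All 40 were among the 24204 gene symbols measured. RNA-seq libraries came from 3 groups, each of 3 libraries. Cells were infected with lentivirus carrying a control hairpin (shCtrl) or with shTRIB3-1 or shTRIB3-2, which target TRIB3, 48 h later were put under puromycin for another 48 h, and were not given any other agent by the labels. All groups, shCtrl included, therefore carried lentivirus and had gone through puromycin selection. The labels describe high-glucose DMEM with 10% fetal bovine serum, whereas the study's methods describe glutamine-deprived HepG2 cells for RNA-seq, without separating the knockdown libraries. Its results on the knockdown RNA-seq name no deprivation, and its discussion places repair gene changes in TRIB3-depleted cells without deprivation. The sources thus differ on the medium at harvest of all 9 libraries, and most of them name no deprivation. Each group was an infected and selected population of 1 cell line, and nothing says that the libraries of a group came from separate cultures, so p-values measure the spread between these libraries, which may be technical.

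Glycolysis splits glucose into pyruvate in a preparatory phase that spends ATP and a payoff phase that returns it, and hepatocytes can also run most steps backwards to make glucose. Hexokinase, phosphofructokinase and pyruvate kinase act at steps that are practically irreversible, and gluconeogenesis bypasses them with pyruvate carboxylase, phosphoenolpyruvate carboxykinase, fructose bisphosphatase and glucose 6-phosphatase. Under low oxygen the HIF-1 transcription factor, whose oxygen-regulated subunit is HIF1A, raises many glycolytic genes. HIF1A is controlled mainly through the stability of its protein, which RNA-seq does not measure.

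The hairpins were directed at the coding sequence of TRIB3 on chromosome 20 (GRCh38, plus strand). Their target sequences, listed in the study's oligonucleotide table, are shown because they define the 2 knockdown groups. In GENCODE release 44 the first matched exon 2 at 388072 to 388092 and all 4 annotated transcripts, and the second matched exon 3 at 391473 to 391493 and 3 of the 4.
shTRIB3-1: tggatgacaacttagataccg
shTRIB3-2: gccgtgctcttccgccagatg

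TRIB3 RNA was the check of the labels. TRIB3 was measured at 67.9, 65.8 and 66.6 FPKM in the control libraries, 34.1, 32.7 and 34.04 FPKM with shTRIB3-1, and 20.6, 20.7 and 20.4 FPKM with shTRIB3-2. All knockdown libraries were below all shCtrl libraries. TRIB3 stood at 50.3% of the shCtrl mean with shTRIB3-1 and at 30.8% with shTRIB3-2, and shTRIB3-1 gave a log2 fold change of -0.99 (SE 0.030, limma, adjusted p = 5.30e-11), shTRIB3-2 one of -1.70 (SE 0.030, adjusted p = 5.39e-13). The libraries held 34206727 to 36311030 assigned fragments, a number recovered from the deposited values. Mitochondrially encoded genes took 5.30% to 6.11% of fragments in the control libraries, 6.29% to 7.01% with shTRIB3-1 and 6.52% to 7.23% with shTRIB3-2, and the part of this shift in the results below was not tested. All 12 hepatocyte-like markers checked, among them ALB and AFP, were expressed at 8.66 FPKM or more. The 6 fibroblast and 4 endothelial markers stayed under 0.2 FPKM in every library. Among leukocyte markers, PTPRC and CD3E were at or near 0, CD14 was 1.10, 0.259 and 0.321 FPKM on average in shCtrl, shTRIB3-1 and shTRIB3-2, and LYZ was 1080.4, 509 and 597 FPKM. The summed leukocyte list was 1023 to 1147 FPKM in shCtrl and 495 to 618 FPKM in the knockdown libraries, nearly all of it LYZ, and its part in the results was not tested.

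Levels are given as FPKM, fragments scaled by gene length and by the library's total, which can be compared between genes. GAPDH, the dehydrogenase that starts the payoff phase, was the highest of the 40 in shCtrl at 1329.6 ± 22.3 FPKM (SD, n = 3), followed by ENO1 at 669.6 ± 11.02, LDHA at 421 ± 19.5, TPI1 at 241 ± 7.08 and PKM at 208 ± 3.49. Neighbours in this part of the order were separated by more than their SD. SLC2A3 (29.4 ± 1.48) and GPI (29.1 ± 0.888) were not, nor were VEGFA (26.7 ± 0.562) and HK2 (26.2 ± 0.946). At the low end stood PCK1 at 1.46 ± 0.0456, PFKFB1 at 1.14 ± 0.0908, PFKM at 0.244 ± 0.0155, HK1 at 0.235 ± 0.0219 and LDHB at 0.0190 ± 0.00829 FPKM. LDHB, the heart-type lactate dehydrogenase subunit, rested on 1 to 12 fragments in any library.

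**Figure D1:**
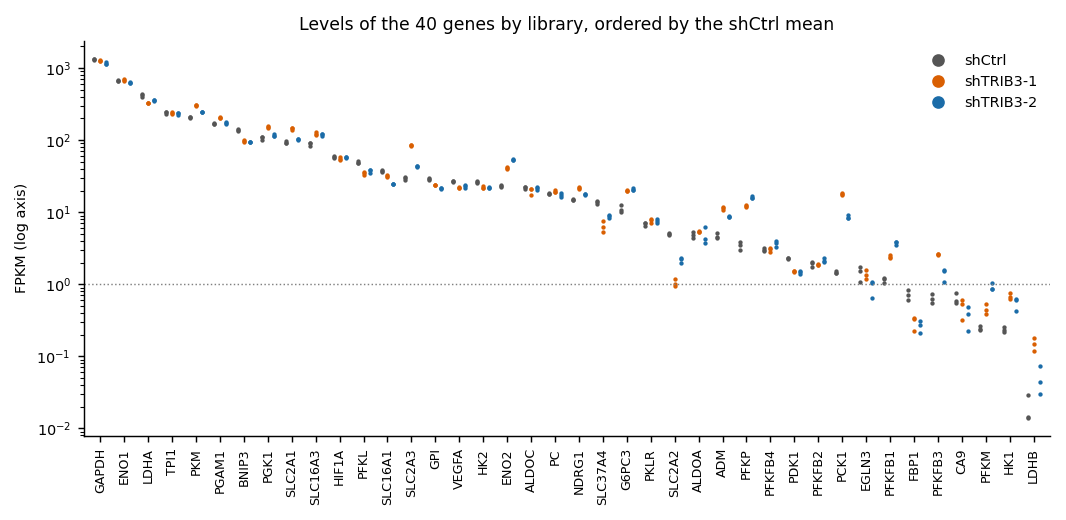
FPKM (log axis) of the 40 genes in each of the 9 libraries, ordered from left to right by the shCtrl mean, with 1 point per library, colours for the 3 groups and a dotted line at 1 FPKM. GAPDH is highest at 1329.6 FPKM in shCtrl and LDHB lowest at 0.0190, and the groups stand apart without overlap for PCK1, SLC2A2, SLC2A3, PFKP, PFKFB1 and PFKFB3, among others.

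Genes were tested when they reached 1 FPKM in at least 3 of the 9 libraries, which held for 35 of the 40 and for 11265 symbols in all. The 5 below were HK1, PFKM, LDHB, FBP1 and CA9. PFKFB3 passed through the knockdown libraries alone, since its highest shCtrl value was 0.741 FPKM, so a difference in PFKFB3 was built into its selection. Fold changes are differences of log2(FPKM + 0.1) from limma, fitted over all 11265 genes, with Benjamini-Hochberg adjustment of p over all of them. Genes were termed past both thresholds when the adjusted p was under 0.05 and the absolute log2 fold change above 1. Both hairpins were compared with the same 3 shCtrl libraries, so the 2 comparisons are not independent.

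With shTRIB3-1, 15 of the 35 tested genes were higher and 10 lower at an adjusted p under 0.05. Of all tested genes, 32.9% were higher and 41.5% lower by the same criterion. Past both thresholds were 6 higher (SLC2A3, PFKP, PCK1, PFKFB1, PFKFB3 and ADM) and 2 lower (SLC2A2 and SLC37A4), where 5.39% of all tested genes were higher and 6.1% lower. With shTRIB3-2, 14 were higher and 13 lower, beside 35.4% and 40.5% of all tested genes. Past both thresholds were 5 higher (PFKP, ENO2, PCK1, PFKFB1 and PFKFB3) and 1 lower (SLC2A2), beside 6.06% and 6.27%. PFKFB3 is counted among the higher genes with both hairpins, though its difference was built into its selection. The median log2 fold change of the 35 was 0.03 with shTRIB3-1 and -0.02 with shTRIB3-2, against -0.06 and -0.03 for all tested genes, while their median absolute log2 fold change was 0.48 and 0.27, against 0.32 and 0.34. The list's median thus lay close to 0, and the calls at an adjusted p under 0.05 were spread over both directions. Past both thresholds more genes were higher than lower, 6 against 2 and 5 against 1, a difference that was not tested.

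The hairpins were compared with each other directly. In shTRIB3-2 against shTRIB3-1, 7 of the 35 genes were higher and 14 lower at an adjusted p under 0.05, beside 25.1% and 20.7% of all tested genes. Past both thresholds were SLC2A2, higher in shTRIB3-2, and PCK1, lower in shTRIB3-2, beside 0.284% and 1.79% of all tested genes.

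**Figure D2:**
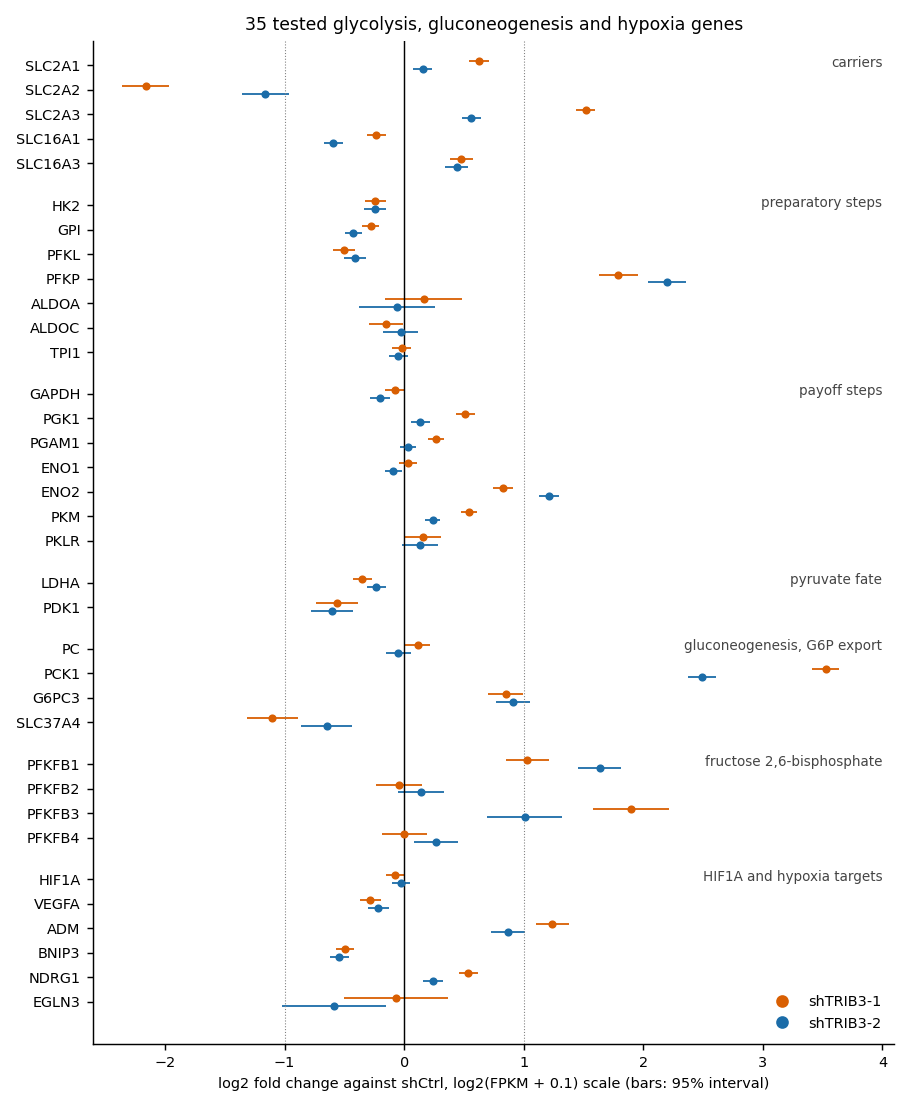
Log2 fold change against shCtrl, on the log2(FPKM + 0.1) scale, of the 35 tested genes by role, with orange points for shTRIB3-1, blue points for shTRIB3-2 and bars for the 95% interval; dotted lines mark -1 and 1. PCK1 lies furthest right at 3.52 and 2.49 and SLC2A2 furthest left at -2.16 and -1.16, while HIF1A and TPI1 lie close to 0 with both hairpins.

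The carriers that let glucose into the cell moved in different directions. SLC2A3 (GLUT3), a high-affinity glucose carrier (chromosome 12, 7919230 to 8019007), rose with both hairpins, and SLC2A2 (GLUT2), the low-affinity carrier of hepatocytes (chromosome 3, 170996347 to 171026743), fell with both. SLC2A3 was measured at 30.6, 29.8 and 27.7 FPKM in the control libraries, 85.4, 84.5 and 83.01 FPKM with shTRIB3-1, and 43.7, 43.7 and 42.6 FPKM with shTRIB3-2. The 3 groups did not overlap. For SLC2A3, shTRIB3-1 gave a log2 fold change of 1.52 (SE 0.037, limma, adjusted p = 1.01e-11), shTRIB3-2 one of 0.56 (SE 0.037, adjusted p = 3.39e-08). SLC2A14, a near-identical relative of SLC2A3, rose too, by a log2 fold change of 1.03 and 1.58, and the authors' counting could have split reads between them, so the size of each change is uncertain. SLC2A2 was measured at 4.89, 5.02 and 5.105 FPKM in the control libraries, 1.16, 1.02 and 0.95 FPKM with shTRIB3-1, and 2.31, 1.997 and 2.25 FPKM with shTRIB3-2. Again no group overlapped another, and shTRIB3-1 was the lower of the knockdowns. For SLC2A2, shTRIB3-1 gave a log2 fold change of -2.16 (SE 0.090, limma, adjusted p = 6.75e-10), shTRIB3-2 one of -1.16 (SE 0.090, adjusted p = 1.56e-07). The direct test between hairpins gave a log2 fold change of 1.00 for shTRIB3-2 against shTRIB3-1 (SE 0.090, limma, adjusted p = 3.80e-06), which lay on the fold threshold: without shTRIB3-1 replicate 2 or 3 or shTRIB3-2 replicate 1 or 3 it was 0.94 to 0.99.

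SLC2A1 (GLUT1), the widespread glucose carrier, was the most abundant of the 3 glucose carriers among the 40 in every group. The shCtrl libraries held SLC2A1 at 98.2, 90.03 and 91.1 FPKM, those of shTRIB3-1 at 146, 147 and 139, and those of shTRIB3-2 at 102, 104 and 105. All knockdown libraries were above all shCtrl libraries, those of shTRIB3-2 by little. For SLC2A1, shTRIB3-1 gave a log2 fold change of 0.63 (SE 0.037, limma, adjusted p = 1.59e-08), shTRIB3-2 one of 0.15 (SE 0.037, adjusted p = 0.00245). With quantile normalization the shTRIB3-2 value fell short of the threshold, at 0.09. In the summed FPKM of SLC2A1, SLC2A2 and SLC2A3, which rose from 127 ± 5.38 in shCtrl to 229 ± 5.66 in shTRIB3-1 and 149 ± 1.0 in shTRIB3-2 (SD, n = 3), SLC2A2 took 3.93% ± 0.244, 0.455% ± 0.0394 and 1.47% ± 0.119. SLC2A3 took 23.0% ± 0.745, 36.8% ± 0.451 and 29.1% ± 0.538 of the same sum. Each of these shares differed between every pair of groups without overlap, at the smallest p that an exact two-sided permutation test of 3 against 3 libraries can give, 0.1 (0.129 after adjustment over 93 shares compared), so no share could pass 0.05.

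The monocarboxylate carriers move lactate and pyruvate across the plasma membrane. SLC16A3 (MCT4), the carrier typical of lactate export, rose, and SLC16A1 (MCT1), the more general carrier, fell. SLC16A3 was measured at 82.5, 92.3 and 90.7 FPKM in the control libraries, 122, 119 and 128 FPKM with shTRIB3-1, and 123, 121 and 115 FPKM with shTRIB3-2. The knockdown libraries overlapped each other and lay above all shCtrl libraries. For SLC16A3, shTRIB3-1 gave a log2 fold change of 0.48 (SE 0.045, limma, adjusted p = 1.07e-06), shTRIB3-2 one of 0.44 (SE 0.045, adjusted p = 2.16e-06). SLC16A1 was measured at 35.8, 36.9 and 38.9 FPKM in the control libraries, 30.8, 31.6 and 32.4 FPKM with shTRIB3-1, and 24.8, 24.7 and 24.4 FPKM with shTRIB3-2. No group overlapped another here, and shTRIB3-2 was lowest. For SLC16A1, shTRIB3-1 gave a log2 fold change of -0.23 (SE 0.036, limma, adjusted p = 8.73e-05), shTRIB3-2 one of -0.59 (SE 0.036, adjusted p = 1.86e-08). SLC16A3 made up 70.4% ± 0.925 of the summed FPKM of SLC16A1, SLC16A3 and SLC16A7 in the control libraries, and 79.6% ± 0.447 and 82.9% ± 0.348 with the hairpins in order (SD, n = 3; exact permutation p = 0.1 for each pair, 0.129 adjusted).

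**Figure D3:**
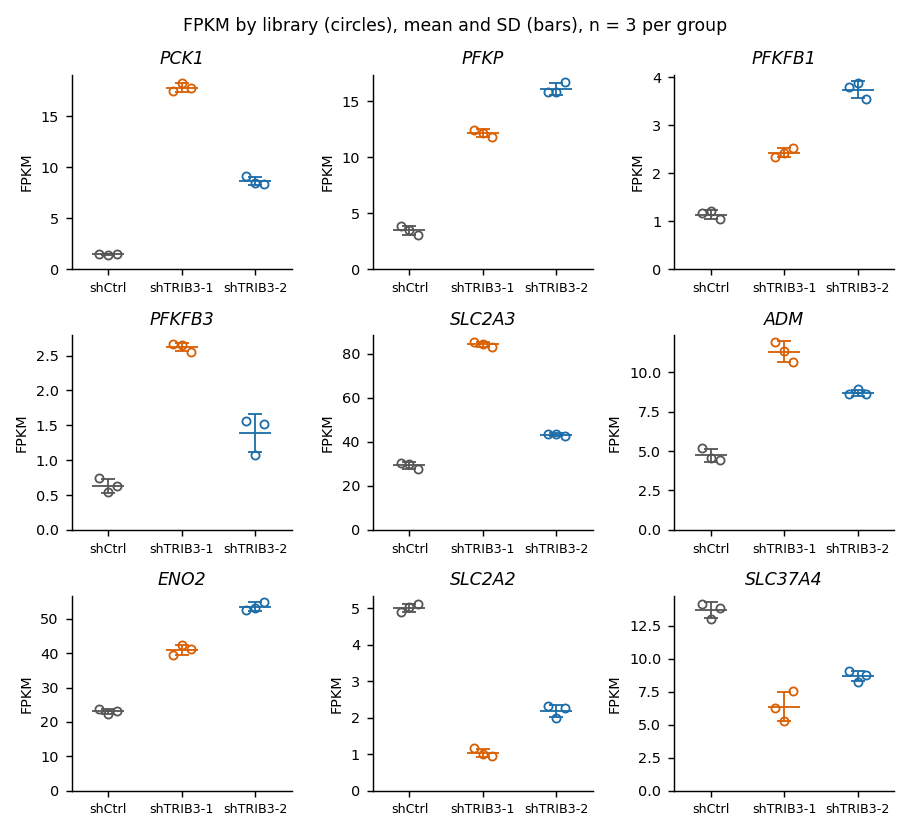
FPKM of the 9 genes past both thresholds with at least 1 hairpin, with 1 panel per gene, a circle for each of the 9 libraries and a bar for the mean and SD of 3; every axis starts at 0. In each of the 9 panels the libraries of the 3 groups do not overlap. The genes were picked by thresholds on these same values, so separation from shCtrl was largely built in. The share of separate groups over all genes was not computed. PCK1 goes from 1.46 FPKM in shCtrl to 17.8 in shTRIB3-1 and 8.65 in shTRIB3-2, whereas PFKP, PFKFB1 and ENO2 are highest in shTRIB3-2.

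Among the preparatory steps, the isoenzymes of phosphofructokinase, the committing step of glycolysis, moved apart. PFKP, the platelet-type subunit (chromosome 10, 3066333 to 3137718), rose with both hairpins, and PFKL, the liver-type subunit, fell with both. PFKP was measured at 3.87, 3.49 and 3.01 FPKM in the control libraries, 12.5, 12.1 and 11.8 FPKM with shTRIB3-1, and 15.8, 15.9 and 16.7 FPKM with shTRIB3-2. The groups did not overlap, and shTRIB3-2 was highest. For PFKP, shTRIB3-1 gave a log2 fold change of 1.79 (SE 0.074, limma, adjusted p = 6.57e-10), shTRIB3-2 one of 2.20 (SE 0.074, adjusted p = 8.41e-11). The shCtrl libraries held PFKL at 48.3, 50.9 and 48.8 FPKM, those of shTRIB3-1 at 35.5, 33.4 and 35.6, and those of shTRIB3-2 at 38.03, 35.1 and 38.2. All knockdown libraries were below all shCtrl libraries and overlapped each other. For PFKL, shTRIB3-1 gave a log2 fold change of -0.50 (SE 0.042, limma, adjusted p = 3.18e-07), shTRIB3-2 one of -0.41 (SE 0.042, adjusted p = 1.76e-06). PFKM, the muscle-type subunit, was below the filter at 0.244 ± 0.0155 FPKM in the control libraries, 0.456 ± 0.0704 with shTRIB3-1 and 0.917 ± 0.0991 with shTRIB3-2 (SD, n = 3), from 42 to 183 fragments, and the groups did not overlap. As a share of the summed phosphofructokinase FPKM, PFKP went from 6.51% ± 0.809 in shCtrl to 25.6% ± 0.918 and 29.8% ± 0.878 and PFKL from 93.0% ± 0.829 to 73.4% ± 0.903 and 68.5% ± 0.929. The sum itself was 53.1 ± 1.39, 47.4 ± 1.35 and 54.1 ± 2.13 FPKM (exact permutation p = 0.1 for each of these shares, 0.129 adjusted).

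The hexokinases trap glucose as glucose 6-phosphate. HK2, the isoenzyme frequent in tumours, fell slightly from 26.2 ± 0.946 FPKM in shCtrl to 22.2 ± 0.979 with shTRIB3-1 and 22.1 ± 0.286 with shTRIB3-2 (SD, n = 3), and shTRIB3-1 gave a log2 fold change of -0.24 (SE 0.040, limma, adjusted p = 1.56e-04), shTRIB3-2 one of -0.24 (SE 0.040, adjusted p = 1.38e-04). HK1, the widespread isoenzyme, was below the filter at 0.235 ± 0.0219, 0.684 ± 0.0691 and 0.552 ± 0.107 FPKM from 43 to 146 fragments, and the knockdown libraries lay above shCtrl. HKDC1, a hexokinase-domain gene that is no member of the 40, made up 47.5% ± 1.54 of the family's summed FPKM in the control libraries and 61.7% ± 1.93 and 63.6% ± 0.588 with the hairpins, where HK2 made up 52.0% ± 1.56, 37.2% ± 1.8 and 35.5% ± 0.585.

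GPI, which turns glucose 6-phosphate into fructose 6-phosphate, fell. GPI was measured at 30.1, 28.8 and 28.4 FPKM in the control libraries, 23.9, 24.05 and 23.9 FPKM with shTRIB3-1, and 21.7, 21.96 and 21.3 FPKM with shTRIB3-2. No group overlapped another, and shTRIB3-1 gave a log2 fold change of -0.28 (SE 0.033, limma, adjusted p = 8.03e-06), shTRIB3-2 one of -0.42 (SE 0.033, adjusted p = 1.59e-07). The next enzymes did not pass the test with either hairpin. TPI1, triose phosphate isomerase, was 241 ± 7.08, 237 ± 6.03 and 232 ± 8.96 FPKM in shCtrl, shTRIB3-1 and shTRIB3-2, with 95% intervals of the log2 difference from -0.10 to 0.06 and from -0.13 to 0.03. ALDOC, the brain-type aldolase, was 21.8 ± 0.845, 19.7 ± 1.99 and 21.4 ± 1.07 FPKM, with intervals from -0.30 to -0.01 (limma, adjusted p = 0.0529) and from -0.17 to 0.12. ALDOA, the muscle-type aldolase, was 4.83 ± 0.397, 5.41 ± 0.146 and 4.74 ± 1.38 FPKM. Its value is uncertain, since 42.8% of its exon bases are shared on the same strand with another annotated gene, ENSG00000285043, and reads from shared exons can be lost or split in counting.

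**Figure D4:**
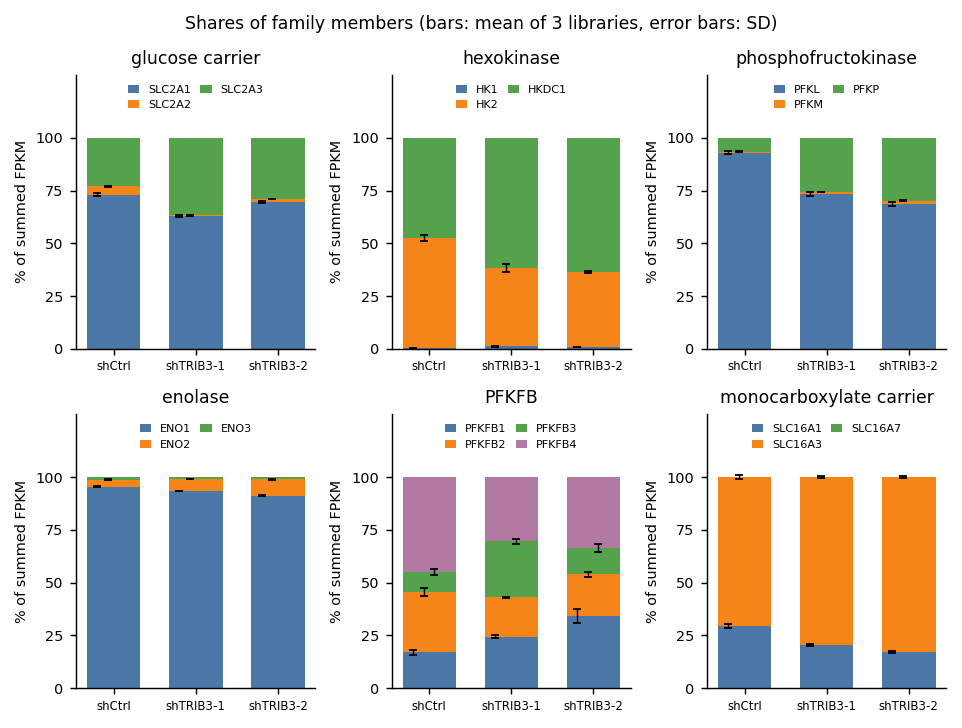
Share of each gene in the summed FPKM of its family (percent) for the glucose carriers, hexokinases, phosphofructokinases, enolases, PFKFB enzymes and monocarboxylate carriers, with stacked bars for the mean of 3 libraries per group and error bars for the SD at the upper edge of each segment. PFKP grows from 6.51% to 25.6% and 29.8% of the phosphofructokinases, and HKDC1 from 47.5% to 61.7% and 63.6% of the hexokinases.

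Of the payoff steps, ENO2, the neuronal-type enolase (chromosome 12, 6913745 to 6923698), changed most. ENO2 was measured at 23.9, 22.3 and 23.1 FPKM in the control libraries, 39.4, 42.5 and 41.1 FPKM with shTRIB3-1, and 52.5, 53.2 and 54.9 FPKM with shTRIB3-2. The groups did not overlap, and shTRIB3-2 was highest. For ENO2, shTRIB3-1 gave a log2 fold change of 0.82 (SE 0.038, limma, adjusted p = 1.56e-09), shTRIB3-2 one of 1.21 (SE 0.038, adjusted p = 4.65e-11). ENO1, the main enolase, was 669.6 ± 11.02, 685 ± 13.2 and 629.6 ± 20.2 FPKM in shCtrl, shTRIB3-1 and shTRIB3-2, and ENO2 took 3.30% ± 0.162, 5.59% ± 0.195 and 7.75% ± 0.278 of the summed enolase FPKM (exact permutation p = 0.1 for each pair, 0.129 adjusted). The ENO1 difference with shTRIB3-2 was -0.09 (limma, adjusted p = 0.0305), and quantile normalization turned it to 0.15.

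PKM, the pyruvate kinase of most tissues and tumours, also rose. PKM was measured at 209, 204 and 211 FPKM in the control libraries, 305, 311 and 295 FPKM with shTRIB3-1, and 248, 246 and 243 FPKM with shTRIB3-2. All 3 groups were separate, with shTRIB3-1 highest, and shTRIB3-1 gave a log2 fold change of 0.54 (SE 0.030, limma, adjusted p = 7.35e-09), shTRIB3-2 one of 0.24 (SE 0.030, adjusted p = 1.14e-05). PKLR, the pyruvate kinase of liver and red cells, was 6.84 ± 0.395, 7.64 ± 0.559 and 7.52 ± 0.487 FPKM and passed with neither hairpin (limma, adjusted p = 0.0567 and 0.0941). PGK1, which makes the first ATP of the payoff phase, rose with both hairpins at 107 ± 4.23, 152 ± 4.05 and 117 ± 4.21 FPKM, and shTRIB3-1 gave a log2 fold change of 0.51 (SE 0.038, limma, adjusted p = 1.11e-07), shTRIB3-2 one of 0.14 (SE 0.038, adjusted p = 0.00571). PGAM1, phosphoglycerate mutase, passed with shTRIB3-1 only, at 170.1 ± 1.51, 204 ± 2.23 and 174 ± 6.49 FPKM, and the hairpins differed by a log2 fold change of -0.23 for shTRIB3-2 against shTRIB3-1 (SE 0.031, limma, adjusted p = 8.79e-05). GAPDH was 1329.6 ± 22.3, 1260.1 ± 20.1 and 1157 ± 46.3 FPKM, and shTRIB3-1 gave a log2 fold change of -0.08 (SE 0.038, limma, adjusted p = 0.0818), shTRIB3-2 one of -0.20 (SE 0.038, adjusted p = 3.96e-04).

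Pyruvate can be reduced to lactate or enter the mitochondria. LDHA, the main lactate dehydrogenase here, was lower in all knockdown libraries than in all shCtrl libraries, at 421 ± 19.5, 329.6 ± 3.61 and 358 ± 7.601 FPKM in shCtrl, shTRIB3-1 and shTRIB3-2 (SD, n = 3). For LDHA, shTRIB3-1 gave a log2 fold change of -0.35 (SE 0.036, limma, adjusted p = 2.38e-06), shTRIB3-2 one of -0.23 (SE 0.036, adjusted p = 8.42e-05), but under quantile normalization the shTRIB3-2 value was -0.04 and no longer passed. PDK1, a kinase that shuts off the pyruvate dehydrogenase complex, fell as well. The shCtrl libraries held PDK1 at 2.21, 2.32 and 2.31 FPKM, those of shTRIB3-1 at 1.54, 1.47 and 1.53, and those of shTRIB3-2 at 1.48, 1.402 and 1.52. Its knockdown groups overlapped each other and lay below shCtrl. For PDK1, shTRIB3-1 gave a log2 fold change of -0.56 (SE 0.081, limma, adjusted p = 4.90e-05), shTRIB3-2 one of -0.60 (SE 0.081, adjusted p = 2.38e-05). LDHB had 1 to 2 fragments in each control library, 8 to 12 with shTRIB3-1 and 2 to 5 with shTRIB3-2, and shares 33.4% of its exon bases with another annotated gene on the same strand, so no fold change is given for it.

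Among the 35 tested genes the largest change was in gluconeogenesis. PCK1, cytosolic phosphoenolpyruvate carboxykinase and a rate-setting enzyme of glucose synthesis (chromosome 20, 57561080 to 57568121), was 12.2 times its shCtrl mean with shTRIB3-1 and 5.94 times with shTRIB3-2. PCK1 was measured at 1.45, 1.42 and 1.51 FPKM in the control libraries, 17.4, 18.2 and 17.7 FPKM with shTRIB3-1, and 9.12, 8.43 and 8.39 FPKM with shTRIB3-2. The groups did not overlap, and shTRIB3-1 was highest. For PCK1, shTRIB3-1 gave a log2 fold change of 3.52 (SE 0.052, limma, adjusted p = 2.38e-13), shTRIB3-2 one of 2.49 (SE 0.052, adjusted p = 1.76e-12). Between the hairpins PCK1 differed by a log2 fold change of -1.03 for shTRIB3-2 against shTRIB3-1 (SE 0.052, limma, adjusted p = 3.78e-08), from 222 to 2701 fragments per library. FBP1, fructose bisphosphatase, was below the filter, at 0.717 ± 0.1197, 0.297 ± 0.0636 and 0.261 ± 0.0497 FPKM (SD, n = 3) from 12 to 51 fragments, with knockdown libraries below all shCtrl libraries. PC, the mitochondrial carboxylase that starts the pathway, was 18 ± 0.419, 19.5 ± 0.492 and 17.4 ± 1.19 FPKM, and shTRIB3-1 gave a log2 fold change of 0.11 (SE 0.048, limma, adjusted p = 0.0475), shTRIB3-2 one of -0.05 (SE 0.048, adjusted p = 0.38), of which the shTRIB3-1 call was lost without any 1 library of shCtrl or shTRIB3-1 or without shTRIB3-2 replicate 3 (0.09 to 0.13).

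The last step releases glucose from glucose 6-phosphate in the endoplasmic reticulum, where SLC37A4 brings the substrate in and a glucose 6-phosphatase cleaves it. SLC37A4 (chromosome 11, 119023751 to 119030906) fell. SLC37A4 was measured at 14.2, 13.03 and 13.9 FPKM in the control libraries, 6.28, 5.31 and 7.55 FPKM with shTRIB3-1, and 9.09, 8.27 and 8.75 FPKM with shTRIB3-2. The groups did not overlap, and the spread within shTRIB3-1 was the widest. For SLC37A4, shTRIB3-1 gave a log2 fold change of -1.10 (SE 0.097, limma, adjusted p = 5.69e-07), shTRIB3-2 one of -0.65 (SE 0.097, adjusted p = 6.03e-05). Without shTRIB3-1 replicate 2 the first value was -0.98, short of the fold threshold. G6PC3, the glucose 6-phosphatase expressed in most tissues, rose. G6PC3 was measured at 12.5, 10.2 and 10.6 FPKM in the control libraries, 19.9, 20.4 and 19.5 FPKM with shTRIB3-1, and 20.3, 21.9 and 20.3 FPKM with shTRIB3-2. All knockdown libraries were above all shCtrl libraries and overlapped each other, and shTRIB3-1 gave a log2 fold change of 0.85 (SE 0.066, limma, adjusted p = 1.81e-07), shTRIB3-2 one of 0.91 (SE 0.066, adjusted p = 8.19e-08). G6PC3 shares 23.9% of its exon bases with HDAC5 on the other strand and SLC37A4 shares 13.3% with TRAPPC4, and whether counting used the strand is not stated. G6PC1, the liver glucose 6-phosphatase, was not among the 40: it was 7.11 ± 0.705, 2.98 ± 0.171 and 6.83 ± 0.536 FPKM, lower with shTRIB3-1 only, and shTRIB3-1 gave a log2 fold change of -1.22 (SE 0.082, limma, adjusted p = 4.84e-08), shTRIB3-2 one of -0.06 (SE 0.082, adjusted p = 0.557).

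Fructose 2,6-bisphosphate activates phosphofructokinase and inhibits fructose bisphosphatase, and PFKFB enzymes make and degrade it. PFKFB1, the liver form (chromosome X, 54932961 to 54998534), and PFKFB3, a form with high kinase activity that tumours often express (chromosome 10, 6144934 to 6254644), rose. The shCtrl libraries held PFKFB1 at 1.17, 1.21 and 1.04 FPKM, those of shTRIB3-1 at 2.33, 2.42 and 2.53, and those of shTRIB3-2 at 3.81, 3.88 and 3.54. The groups did not overlap, and shTRIB3-2 was highest. For PFKFB1, shTRIB3-1 gave a log2 fold change of 1.03 (SE 0.083, limma, adjusted p = 2.49e-07), shTRIB3-2 one of 1.63 (SE 0.083, adjusted p = 3.10e-09), but without shCtrl replicate 3 the first value was 0.97 and with a pseudocount of 1 it was 0.68. PFKFB3 was measured at 0.741, 0.541 and 0.626 FPKM in the control libraries, 2.67, 2.65 and 2.55 FPKM with shTRIB3-1, and 1.57, 1.08 and 1.52 FPKM with shTRIB3-2. Here too the groups did not overlap, with shTRIB3-1 highest. For PFKFB3, shTRIB3-1 gave a log2 fold change of 1.89 and shTRIB3-2 one of 1.01. It passed the filter through the knockdown libraries alone, so a difference was built into its selection and its test is not given. The shTRIB3-2 value was at the fold threshold and dropped below it without shCtrl replicate 2 (0.91), shTRIB3-2 replicate 1 (0.92) or shTRIB3-2 replicate 3 (0.94), and to 0.54 with a pseudocount of 1.

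PFKFB2, the heart-type form, was 1.93 ± 0.157, 1.86 ± 0.0351 and 2.14 ± 0.143 FPKM in shCtrl, shTRIB3-1 and shTRIB3-2 (SD, n = 3) and passed with neither hairpin. PFKFB4, the testis-type form, was 3.03 ± 0.142, 3.04 ± 0.203 and 3.67 ± 0.375 FPKM and passed with shTRIB3-2 only (log2 fold change 0.27, limma, adjusted p = 0.0132). The summed PFKFB level was 6.74 ± 0.115, 9.95 ± 0.233 and 10.9 ± 0.566 FPKM. PFKFB4 was the largest part of it in shCtrl at 45.0% ± 2.68, whereas PFKFB1 reached 34.3% ± 3.24 in shTRIB3-2 and PFKFB3 26.4% ± 1.15 in shTRIB3-1.

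HIF1A RNA did not pass the test with either hairpin, and the hypoxia targets moved in both directions. HIF1A was 58.2 ± 1.55, 55.2 ± 2.08 and 57.2 ± 0.606 FPKM (SD, n = 3), and the 95% interval of its log2 difference was -0.15 to -0.0019 for the first hairpin and -0.10 to 0.05 for the second (limma, adjusted p = 0.0598 and 0.52). ADM, the vasodilator peptide adrenomedullin (chromosome 11, 10305073 to 10307397), rose. ADM was measured at 5.19, 4.58 and 4.43 FPKM in the control libraries, 11.9, 11.3 and 10.6 FPKM with shTRIB3-1, and 8.602, 8.92 and 8.59 FPKM with shTRIB3-2. No group overlapped another, and shTRIB3-1 gave a log2 fold change of 1.24 (SE 0.064, limma, adjusted p = 4.16e-09), shTRIB3-2 one of 0.87 (SE 0.064, adjusted p = 9.13e-08). NDRG1, a stress-responsive gene, rose less. NDRG1 was measured at 14.7, 15.3 and 15 FPKM in the control libraries, 21.9, 22.5 and 21.1 FPKM with shTRIB3-1, and 17.4, 18.1 and 17.7 FPKM with shTRIB3-2. The groups were separate, with shTRIB3-1 highest, and shTRIB3-1 gave a log2 fold change of 0.54 (SE 0.037, limma, adjusted p = 6.19e-08), shTRIB3-2 one of 0.24 (SE 0.037, adjusted p = 7.93e-05).

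BNIP3, which encodes a mitophagy receptor, and VEGFA, the angiogenic growth factor, fell. The shCtrl libraries held BNIP3 at 135, 137 and 142 FPKM, those of shTRIB3-1 at 93.6, 102 and 98.3, and those of shTRIB3-2 at 94.9, 95 and 94. All knockdown libraries were below all shCtrl libraries and overlapped each other, and shTRIB3-1 gave a log2 fold change of -0.49 (SE 0.035, limma, adjusted p = 7.07e-08), shTRIB3-2 one of -0.54 (SE 0.035, adjusted p = 2.57e-08). VEGFA was 26.7 ± 0.562, 21.9 ± 0.617 and 22.97 ± 1.102 FPKM, and shTRIB3-1 gave a log2 fold change of -0.28 (SE 0.041, limma, adjusted p = 4.49e-05), shTRIB3-2 one of -0.22 (SE 0.041, adjusted p = 3.84e-04). EGLN3, a prolyl hydroxylase that marks HIF subunits for degradation, was low and variable. EGLN3 was measured at 1.71, 1.08 and 1.52 FPKM in the control libraries, 1.55, 1.33 and 1.17 FPKM with shTRIB3-1, and 0.648, 1.08 and 1.05 FPKM with shTRIB3-2. The highest shTRIB3-2 library overlapped the lowest shCtrl library, and shTRIB3-1 gave a log2 fold change of -0.07 (SE 0.200, limma, adjusted p = 0.767), shTRIB3-2 one of -0.59 (SE 0.200, adjusted p = 0.0184), a call lost without shCtrl replicate 1 or 3 or shTRIB3-2 replicate 1 (-0.37 to -0.54). CA9, the carbonic anhydrase often used as a hypoxia marker, was below the filter at 0.6296 ± 0.112, 0.483 ± 0.1496 and 0.365 ± 0.128 FPKM from 12 to 42 fragments. CA9 shares 35.7% of its exon bases with ARHGEF39 on the other strand, and whether counting used the strand is not stated.

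Promoters of the members were searched for short motifs, since HIF-1 binds the letters ACGTG or GCGTG and E-box factors bind CACGTG, and since runs of GGG can fold as a G-quadruplex, the DNA structure the study was about. RefSeq windows on GRCh38.p14, 250 bases before to 50 after a start, were given for 34 of the 40 genes in 68 windows, and the promoters of PCK1, SLC2A3, SLC16A1, PFKFB2, VEGFA and NDRG1 were not searched here. On either strand, ACGTG stood in 25 of the 68 windows (36.8%) against 21.4% of all 35116 windows, and GCGTG in 24 (35.3%) against 36.5%. CACGTG, which contains ACGTG, stood in 11 (16.2%) against 7.26%, and 4 runs of GGG with 1 to 7 bases between them in 29 (42.6%) against 24.9%. Windows of genes that passed the filter on expression held these motifs more often than all windows did, at 25.9%, 48.7%, 9.54% and 33.6%. The motifs are descriptions of letters and show no binding.

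The 150 bases before the most upstream listed start are shown for members past both thresholds with a hairpin, and for LDHA, which fell, as a known HIF-1 target; HIF core or E-box letters are in capitals. Members higher and members lower in the knockdowns both include windows with and without the core. LDHA and BNIP3, which also fell, were picked for display after their values were seen. The stretch of ENO2, which lies in an annotated exon, is not shown, nor is that of BNIP3, with 44 of its 150 bases in annotated exons. The BNIP3 stretch held 6 HIF cores, counted on both strands, and 1 CACGTG, and the ENO2 stretch held 1 core.
SLC2A2 (chr3:171026721-171026870, minus strand): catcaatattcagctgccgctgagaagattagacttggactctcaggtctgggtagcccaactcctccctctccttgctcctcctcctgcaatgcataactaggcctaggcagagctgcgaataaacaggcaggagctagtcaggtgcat
PFKP (chr10:3067820-3067969, plus strand): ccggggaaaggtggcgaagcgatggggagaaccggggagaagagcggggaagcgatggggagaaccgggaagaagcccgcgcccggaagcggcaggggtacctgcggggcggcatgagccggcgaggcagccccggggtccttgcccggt
SLC37A4 (chr11:119030878-119031027, minus strand): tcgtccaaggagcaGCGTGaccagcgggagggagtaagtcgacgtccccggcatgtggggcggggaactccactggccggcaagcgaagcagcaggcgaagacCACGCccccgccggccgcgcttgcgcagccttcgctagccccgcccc
PFKFB1 (chrX:54998790-54998939, minus strand): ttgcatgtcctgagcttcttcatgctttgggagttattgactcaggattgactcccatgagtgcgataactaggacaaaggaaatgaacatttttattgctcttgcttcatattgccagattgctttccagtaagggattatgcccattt
PFKFB3 (chr10:6144771-6144920, plus strand): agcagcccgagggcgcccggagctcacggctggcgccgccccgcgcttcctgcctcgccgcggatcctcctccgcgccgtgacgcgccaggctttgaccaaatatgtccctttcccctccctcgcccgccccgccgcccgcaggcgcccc
ADM (chr11:10304923-10305072, plus strand): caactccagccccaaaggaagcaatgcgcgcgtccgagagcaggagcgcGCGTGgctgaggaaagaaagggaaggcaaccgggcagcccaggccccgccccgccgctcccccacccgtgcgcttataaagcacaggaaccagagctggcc
LDHA (chr11:18394413-18394562, plus strand): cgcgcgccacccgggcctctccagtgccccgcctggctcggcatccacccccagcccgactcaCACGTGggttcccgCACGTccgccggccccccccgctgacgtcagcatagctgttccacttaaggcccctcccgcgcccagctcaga
Of these, LDHA held a CACGTG and a separate ACGTG on the other strand, ADM 1 and SLC37A4 2 GCGTG cores, and SLC2A2, PFKP, PFKFB1 and PFKFB3 none in this stretch. The stretches of PFKFB3 and ADM held 4 runs of GGG on the strand opposite to the one printed. The PFKP stretch lies within the annotated span of PFKP given above. Over all their windows PFKP held 4 HIF cores and PFKFB3 held 3, whereas SLC2A2 and PFKFB1 held 0.

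Other genes of glucose use were counted by list, whatever their change. The counts at an adjusted p under 0.05 stand beside 32.9% higher and 41.5% lower over all tested genes with shTRIB3-1, and 35.4% and 40.5% with shTRIB3-2, and no list was tested as a whole. Of 18 other glycolysis and gluconeogenesis enzymes tested, 7 were higher and 9 lower with shTRIB3-1 and 6 and 8 with shTRIB3-2 at an adjusted p under 0.05. Past both thresholds with at least 1 hairpin were MDH1, cytosolic malate dehydrogenase, PGM1, phosphoglucomutase, GPD1, glycerol 3-phosphate dehydrogenase, and G6PC1. MDH1 fell from 129 ± 3.05 to 47.4 ± 2.94 and 45.9 ± 1.47 FPKM, and shTRIB3-1 gave a log2 fold change of -1.44 (SE 0.044, limma, adjusted p = 4.99e-11), shTRIB3-2 one of -1.49 (SE 0.044, adjusted p = 2.67e-11). PGM1 fell from 35.4 ± 0.786 to 14.3 ± 0.5302 and 16.96 ± 0.469, with log2 fold changes of -1.30 and -1.06. GPD1 rose from 10.7 ± 0.717 to 17.3 ± 0.908 and 23.99 ± 1.42, with log2 fold changes of 0.68 and 1.15.

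Of 12 genes that govern the entry of pyruvate into mitochondrial metabolism, 2 were higher and 7 lower with shTRIB3-1, and 4 higher and 6 lower with shTRIB3-2, again beside 32.9% and 41.5%, and 35.4% and 40.5%, of all tested genes. PDP1, a phosphatase that switches pyruvate dehydrogenase on, rose from 1.45 ± 0.166 to 6.34 ± 0.475 and 6.26 ± 0.268 FPKM, with log2 fold changes of 2.06 and 2.04. PDK2, a kinase that switches it off, changed by log2 fold changes of -1.12 and -0.90, MPC1, a subunit of the mitochondrial pyruvate carrier, by -1.15 and -0.79, and PDPR, a regulator of the phosphatase, by -1.01 and -0.81. All of these passed at an adjusted p under 0.05. Another gene counted as lower with both hairpins passed the filter through the shCtrl libraries alone, so its difference was built into its selection.

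In the pentose phosphate pathway, which makes NADPH and ribose, 4 of 11 genes were higher and 5 lower with shTRIB3-1. With shTRIB3-2, 1 was higher and 9 lower. All tested genes gave 32.9% and 41.5%, and 35.4% and 40.5%. None of the 11 was past both thresholds against shCtrl with either hairpin. Of all tested genes, 5.39% and 6.1% were with shTRIB3-1 and 6.06% and 6.27% with shTRIB3-2. PRPS2, which makes phosphoribosyl pyrophosphate, changed most, by -0.81 and -0.99. Of 17 glycogen genes, 5 were higher and 9 lower with shTRIB3-1 and 7 higher and 7 lower with shTRIB3-2. The lower counts include a gene that passed the filter through the shCtrl libraries alone. The higher counts include genes that would not have passed it without the knockdown libraries. A difference in these genes was built into their selection. PPP1R3D, a glycogen-targeting subunit of protein phosphatase 1, was the only glycogen gene past both thresholds, at -1.16 and -1.03, beside the same shares of all tested genes.

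Other sugar and monocarboxylate carriers showed 7 of 12 higher and 3 lower with each hairpin. SLC16A4 rose from 1.43 ± 0.212 to 4.58 ± 0.0109 and 5.14 ± 0.2401 FPKM, and shTRIB3-1 gave a log2 fold change of 1.62 (SE 0.093, limma, adjusted p = 1.12e-08), shTRIB3-2 one of 1.78 (SE 0.093, adjusted p = 3.83e-09). SLC2A8 (GLUT8), an intracellular sugar carrier, rose from 18.05 ± 0.199 to 43.5 ± 0.312 and 38.9 ± 1.38, with log2 fold changes of 1.27 and 1.10. SLC16A5 rose by 1.07 and 1.21 and SLC2A6 by 0.95 and 1.08 on the log2 scale, while SLC2A4 (GLUT4), the insulin-responsive carrier, was low, at log2 fold changes of -0.80 and -1.04, and passed the filter through the shCtrl libraries alone.

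The genes of oxygen sensing and the HIF subunits other than HIF1A gave 3 of 12 higher and 6 lower with shTRIB3-1, and 3 higher and 7 lower with shTRIB3-2. CITED2, a HIF-induced protein that competes with HIF for its coactivator, fell from 4.41 ± 0.306 to 3.101 ± 0.0258 and 1.85 ± 0.0977 FPKM, and shTRIB3-1 gave a log2 fold change of -0.49 (SE 0.073, limma, adjusted p = 5.69e-05), shTRIB3-2 one of -1.21 (SE 0.073, adjusted p = 1.48e-08). Of 35 other hypoxia-induced genes, 18 were higher and 9 lower with shTRIB3-1, 6 and 4 of them past both thresholds, and 20 higher and 9 lower with shTRIB3-2, 3 and 4 of them past both. Over all tested genes the shares were 32.9% and 41.5%, with 5.39% and 6.1% past both, for shTRIB3-1, and 35.4% and 40.5%, with 6.06% and 6.27% past both, for shTRIB3-2. With each hairpin the calls past both thresholds include CA12, higher, and TMEM45A, lower. Their entry into the tested set rested on the shTRIB3-1 and the shCtrl libraries respectively. The list's median log2 fold change was 0.17 and 0.22, beside -0.06 and -0.03 over all tested genes.

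Hypoxia-induced genes that rose included DUSP1 and PLIN2. CA12, a membrane carbonic anhydrase, went from 0.0958 ± 0.00863 to 1.52 ± 0.143 and 0.485 ± 0.0684 FPKM, with log2 fold changes of 3.05 and 1.57. It passed the filter through the shTRIB3-1 libraries alone, so a difference from both other groups was built into its selection and its test is not given. DUSP1, a MAP kinase phosphatase, went from 16.1 ± 0.734 to 75.5 ± 3.57 and 72.6 ± 2.79, with log2 fold changes of 2.23 and 2.17, and PLIN2, a lipid droplet coat protein, from 222 ± 6.39 to 556 ± 15.1 and 721 ± 17.9, with 1.33 and 1.70. LOX, a collagen-crosslinking enzyme, fell from 13.7 ± 1.81 to 3.66 ± 0.355 and 3.23 ± 0.341 (log2 fold changes -1.87 and -2.05), INSIG2, a sterol sensor, from 35.5 ± 1.91 to 10.9 ± 1.08 and 16.6 ± 0.497 (-1.69 and -1.09) and TMEM45A from 2.03 ± 0.196 to 0.839 ± 0.238 and 0.828 ± 0.406 (-1.20 and -1.29). TMEM45A would not have passed the filter without its shCtrl libraries.

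Of 29 transcription factors and coactivators of glucose genes, 10 were higher and 12 lower with shTRIB3-1 and 11 and 10 with shTRIB3-2. PPARGC1A (PGC-1 alpha), a coactivator of gluconeogenic genes in liver, went from 1.81 ± 0.138 to 0.305 ± 0.0219 and 0.392 ± 0.0762 FPKM, with log2 fold changes of -2.23 and -1.96. It passed the filter through the shCtrl libraries alone, so a difference was built into its selection and its test is not given. The liver factor ONECUT1 (-1.08 and -1.03) fell with both hairpins.

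**Figure D5:**
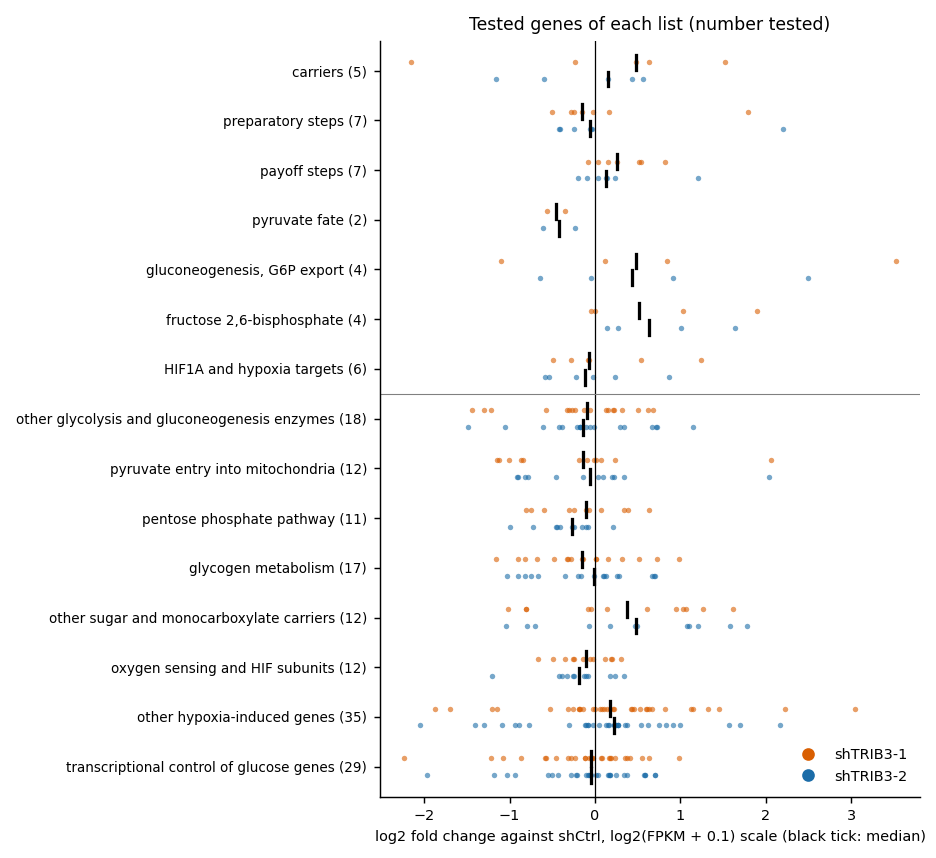
Log2 fold change against shCtrl, on the log2(FPKM + 0.1) scale, of the tested genes of 7 groups of members (above the grey line) and 8 other lists (below it), with a point per gene, orange for shTRIB3-1, blue for shTRIB3-2, and a black tick for the median. Most medians lie near 0, from -0.46 for the 2 tested genes of pyruvate fate to 0.52 and 0.64 for the 4 PFKFB genes. Of these 4, PFKFB3 passed the filter through the knockdown libraries alone, so its difference was built into its selection.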

How the data were processed

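RNA-seq of 9 HepG2 libraries was analysed, with 3 each of shCtrl, shTRIB3-1 and shTRIB3-2, grouped by their labels. The authors deposited FPKM by gene symbol, with a column for every library. STAR aligned the reads to GRCh38 according to the study's methods, and the submitters' processing notes name HTSeq and R 3.2.0. The annotation release, the strand setting of counting and the filters are not given in the sources used here. The methods and the labels name different library kits. FPKM is not corrected for composition, so a rise of abundant genes lowers the other values of a library.

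Fragments per library and gene were recovered from the values, of which 100% of 172769 above 0 came within 0.02 of a whole number, and gave 34206727 to 36311030 fragments per library. Precision at this depth is limited by the spread between libraries for most members and by counting for those with few fragments. No library was a copy of another. The share of any isoenzyme is a share of summed FPKM.

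Genes at 1 FPKM or more in at least 3 libraries were tested on log2(FPKM + 0.1) with limma 3.58.1 in R 4.3.3, with 3 group means, empirical Bayes with a mean-variance trend, two-sided p-values and Benjamini-Hochberg adjustment over all 11265 tested genes. On a log2 scale with a pseudocount, changes of low genes are understated. Members below the filter were fitted without it. Both fitting and fragment recovery were tested on simulated data. Overlap of exons was taken from GENCODE release 44 on GRCh38, promoters from RefSeq windows on GRCh38.p14. Figures were drawn with matplotlib 3.10.9 in Python 3.11.15.

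All 40 members are named. Library values are given for members past both thresholds with either hairpin and for the others among the 20 with the largest mean absolute log2 fold change. Of other lists, genes past both thresholds with either hairpin are named, at most 6 per list, or else the 1 with the largest change. HKDC1 is named outside this rule, after its values were seen. Some genes of the other lists, families and markers are counted but not reported here by name. Members and lists were chosen with earlier results of these data known. Alternatives were a pseudocount of 1, other filters, 3 scalings, no variance trend, a replicate block and leaving out each library.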

Additional observations from a re-analysis of the deposited data

Results flagged for a closer look

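Some genes differed between the knockdown groups by an adjusted p under 0.05 and an absolute log2 fold change above 1 in the direct test of shTRIB3-2 against shTRIB3-1 (limma). Among the 40 members these were SLC2A2, whose log2 difference was 1.00 (adjusted p = 3.80e-06), and PCK1, at -1.03 (adjusted p = 3.78e-08). Both were nonetheless on the same side of shCtrl with both hairpins, in 3 of 3 libraries each. Among the other listed genes, G6PC1 differed by 1.17 and CA12 by -1.47. CA12 entered the tested set through the shTRIB3-1 libraries alone, so its difference between hairpins was built into its selection and stands as a description. The cause of these differences between hairpins was not tested.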

How the results depend on the processing

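Of 204 recomputed counts of members, 189 stayed within 1.5 times the value reported. Of 1989 recomputed fold changes, 1876 kept direction and side of the threshold, 42 lost and 34 gained significance and 37 changed sign. Requiring 5 FPKM, which leaves 28 members, gave 1 member past both thresholds and lower with shTRIB3-1, 3 higher and 0 lower with shTRIB3-2, and between hairpins 4 higher at an adjusted p under 0.05, with 0 higher and 1 lower past both. A pseudocount of 1, which shrinks low genes, gave 0 lower with shTRIB3-2 and 0 higher and 0 lower between hairpins past both thresholds, and no filter on low values gave 2 lower with shTRIB3-2. Centring gave 0 higher between hairpins past both thresholds, beside 25 of all 11265 tested genes. Leaving out 1 library gave 1 to 2 lower with shTRIB3-1 and 0 to 1 higher between hairpins past both. Over all genes those fits gave 558 to 695 and 20 to 36. The 5 FPKM filter gave 407 of 7714 genes lower with shTRIB3-1, and 382 higher and 419 lower with shTRIB3-2, past both. Between hairpins it gave 2276 higher at an adjusted p under 0.05, with 7 higher and 119 lower past both. A pseudocount of 1 gave 477 of 11265 lower with shTRIB3-2, and 4 and 80 between hairpins. No filter gave 930 of 24204 lower with shTRIB3-2.

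Changes of sign were in these log2 fold changes. Centring on the library median gave TPI1 0.0613, GAPDH 0.0024, PFKFB2 0.0338, HIF1A 0.00376 and EGLN3 0.0107 with shTRIB3-1, then ALDOC 0.0222, TPI1 0.00105, PC 0.00329 and HIF1A 0.0265 with shTRIB3-2. Quantile normalization gave PFKFB2 0.0224 with shTRIB3-1, then ENO1 0.15 and HIF1A 0.0154 with shTRIB3-2, then TPI1 0.0431, GAPDH 0.101, ENO1 0.00266 and PDK1 0.00195 between hairpins. Rescaling to TPM gave ENO1 -0.0217 and PFKFB4 -0.0515 with shTRIB3-1, then HK2 0.0289 and PKLR 0.0089 between hairpins. Over the fits that each left out 1 library, PFKFB4 ran from -0.0357 to 0.0554 and EGLN3 ran from -0.249 to 0.0622 with shTRIB3-1, ALDOA ran from -0.281 to 0.0955, ALDOC ran from -0.0611 to 0.0112 and PC ran from -0.0929 to 0.00512 with shTRIB3-2, and HK2 ran from -0.0213 to 0.0342, TPI1 ran from -0.0518 to 0.000324 and PKLR ran from -0.0829 to 0.0239 between hairpins. Causes were not tested.

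The replicate numbers of the labels did not pair the libraries throughout: deviations of same-numbered libraries correlated at -0.07 to 0.09. Between shTRIB3-1 and either other group, same-numbered libraries correlated best, though weakly, at 0.02 to 0.09. Between shCtrl and shTRIB3-2 they did not, at -0.07 to 0.004. With the replicate number as a block, shTRIB3-1 gave 16 members higher and 11 lower, shTRIB3-2 gave 15 and 13, and the hairpins differed in 8 and 14. In the same order, all 11265 tested genes gave 3736 and 4716, 4020 and 4581, and 2887 and 2387. TPM rescaling moved the median of all tested genes to -0.11 with shTRIB3-1, from -0.06. Depth limits LDHB, CA9 and FBP1, and the fits of members under the filter were chosen after seeing the data.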
